A study of Mus musculus with 3 samples.

Results

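The PDGF system comprises 4 ligand genes, Pdgfa, Pdgfb, Pdgfc and Pdgfd, and 2 receptor genes, Pdgfra and Pdgfrb, and these 6 genes were taken by symbol from a count table of 56941 genes. Each gene had 1 row, so all 6 are described. The table comes from microvascular fragments, which are stretches of capillary and other small vessels, released from the brains of adult wild-type C57BL/6J mice by mechanical and enzymatic dissociation. The 3 libraries, 1 for each of 3 mice, form a single group without any treatment, transgene or other control, and the labels give no sex or exact age. The labels name no sorting step, and fragments of this kind carry endothelium together with mural and other cells that stay attached. A level in bulk RNA cannot tell fewer cells of a type from less RNA per cell.

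Platelet-derived growth factors are dimeric secreted proteins that bind receptor tyrosine kinases on neighbouring cells. In brain vessels, PDGF-B from endothelial cells signals to PDGF receptor beta on pericytes and smooth muscle cells, and mice with reduced signalling through this pair have too few pericytes and a leaky blood-brain barrier. PDGF receptor alpha is best known in this tissue from oligodendrocyte precursors and from fibroblasts of the meninges and larger vessels. PDGF-A and PDGF-B are processed inside the cell by proprotein convertases, whereas PDGF-C and PDGF-D are secreted in a latent form and are activated by proteases outside it.

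Depth was 128428355, 136672205 and 150449539 counts in replicates 1, 2 and 3. Levels are given as CPM, which are counts set to the same effective size in every library, and, where genes are set beside each other, as CPM per kb of annotated exon. In the library of replicate 2, the 5 pituitary hormone and granule genes of a marker list summed to 1532 CPM, against 35.1 and 43.9 CPM in replicates 1 and 3. In the library of replicate 1, the 5 erythroid genes summed to 1088 CPM, against 134 and 62.5 CPM in replicates 2 and 3, and mitochondrial genes held 3.29% of counts, against 1.75% and 1.65%. These 10 genes, namely Gh, Prl, Pomc, Cga and Chga of the pituitary list and Hba-a1, Hba-a2, Hbb-bs, Hbb-bt and Alas2 of the erythroid list, were among the 15 genes of the whole table that edgeR's dispersion test, described with its results further on, called variable between the mice at an adjusted p of 0.05. The levels of the 6 PDGF genes are therefore shown for each library singly, and their ranges without each library in turn are given in the closing section.

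Pdgfb was the most abundant PDGF transcript, followed by its receptor gene Pdgfrb. Per kb of exon, Pdgfb stood at 144.6 ± 32.9 CPM (SD, n = 3) and Pdgfrb at 65.7 ± 5.66 CPM. Pdgfd had 24.1 ± 2.93 CPM per kb, Pdgfa 18.7 ± 2.55, Pdgfc 2.15 ± 0.423 and Pdgfra 0.607 ± 0.0675. All 6 genes were detected, meaning 1 CPM or more in every library, a level that 23.2% of the genes in the table reached. Among the 12814 detected genes with a known exon length, Pdgfb lay above 97.9% and Pdgfrb above 94.6%. Pdgfd lay above 84.2% of them, Pdgfa above 79.5%, Pdgfc above 25.6% and Pdgfra above 7.28%. These percentages, and the places of the members beside marker and pathway genes given below, were not recomputed with other exon lengths.

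**Figure D1:**
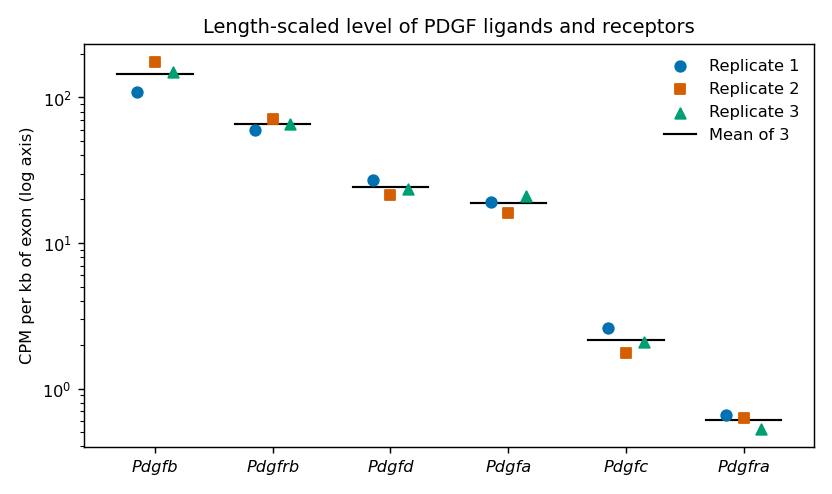
Length-scaled level (CPM per kb of exon, log axis) of the 4 PDGF ligand genes and 2 receptor genes; each point is 1 library and each black line the mean of the 3. Pdgfb lies highest, from 109 to 174.5 CPM per kb, and Pdgfra lowest, from 0.531 to 0.659, and neighbouring genes do not overlap.

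In this order of 6 genes, the ranges over the 3 mice overlapped for none of the 5 pairs of neighbours. The interval between neighbours was largest from Pdgfa to Pdgfc, where the level per kb was 7.37, 9.11 and 10.01 times as high in replicates 1, 2 and 3. It was smallest from Pdgfd to Pdgfa, at 1.43, 1.35 and 1.13 times. The place of these last 2 depends on the exon length assumed. Pdgfa stood above Pdgfd with the length of the longest coding transcript (28.3 against 24.3 CPM per kb) and with the median transcript length (45.3 against 26.6). It also did so with the exon length free of other genes (25.3 against 24.1). There the whole count was divided by the shorter length, and reads over the shared stretch were not removed. With the median transcript length, Pdgfra (3.90) and Pdgfc (3.88) also changed places. No p-value is given for these orders: with 3 mice, the smallest p of an exact sign-flip test is 0.25.

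Among the ligands, Pdgfb, which encodes the endothelial ligand of PDGF receptor beta, was counted 59179, 101508 and 90554 times in replicates 1, 2 and 3. This corresponds to 454.7, 726 and 624 CPM, or 602 ± 137 CPM (SD, n = 3). Replicate 1 was the low library and replicate 2 the high one, with a 1.60-fold range between them. Pdgfb had the widest relative spread of the 6 genes, a coefficient of variation of 22.8%, yet 22.1% of the 18087 genes tested had a wider one.

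Pdgfd, whose product binds mainly PDGF receptor beta after it is activated outside the cell, had 86.0, 67.7 and 74.6 CPM. Pdgfa, whose product is a main ligand of PDGF receptor alpha, had 59.6, 49.8 and 65.5 CPM. Pdgfc, which encodes the other latent ligand and acts mainly on receptor alpha, had 13.2, 8.92 and 10.7 CPM. These 3 ligand genes were all lowest in replicate 2, the library in which Pdgfb was highest. Pdgfc and Pdgfd were highest in replicate 1 and Pdgfa in replicate 3, and their coefficients of variation were 19.7%, 12.1% and 13.6%. Replicate 2 was the lowest library for 30.9% of all genes tested, so this position is common in the table.

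Pdgfa and Pdgfc share exonic bases with genes on the other strand. In the GENCODE M21 annotation, 26.1% of the exonic bases of Pdgfa lie under exons of 6330403L08Rik on the other strand, a noncoding gene with 2953, 2460 and 2933 counts. Whether the authors' counting used strand is not given in the sources used here, so the level of Pdgfa is uncertain over this stretch. For Pdgfc the overlap was 2.89% with Gm16000, which had 0, 2 and 0 counts. Pdgfb, Pdgfd and Pdgfrb have no exonic overlap with another gene there.

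Of the summed ligand level per kb, Pdgfb made up 69.1%, 81.7% and 76.2% in replicates 1, 2 and 3, with a mean of 75.6% ± 6.32 (SD, n = 3). Pdgfd contributed 13.1% ± 3.71, Pdgfa 10.1% ± 2.36 and Pdgfc 1.18% ± 0.420. Pdgfb was the largest part in 3 of 3 libraries. Its share was lowest in replicate 1, where its own level was lowest and those of Pdgfc and Pdgfd were highest.

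**Figure D2:**
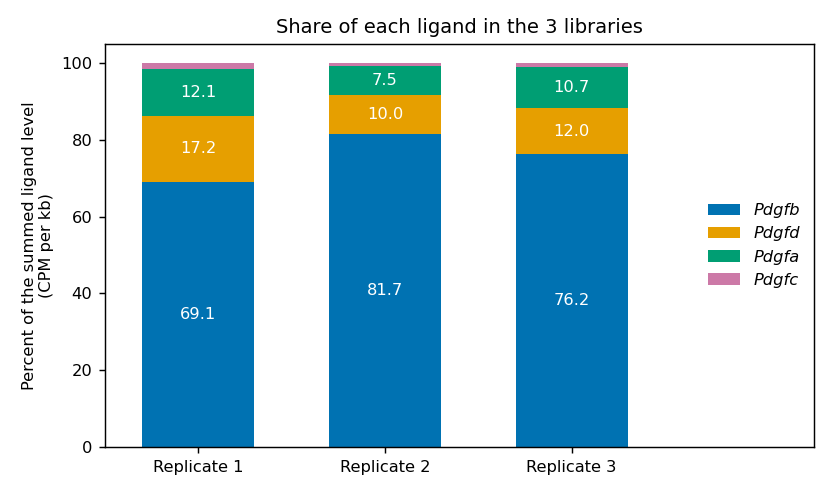
Percent of the summed level of the 4 ligand genes (CPM per kb of exon) held by each gene, 1 bar per library, with the values above 4% written in. Pdgfb holds 69.1% to 81.7%, Pdgfd 10.05% to 17.2% and Pdgfa 7.47% to 12.1%, while Pdgfc holds at most 1.64%.

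Of the receptors, Pdgfrb, the receptor gene of mural cells, had 42748, 54575 and 52460 counts, or 328, 390 and 361 CPM. It was the steadiest of the 6 genes, with a coefficient of variation of 8.61% and a 1.19-fold range. Pdgfra had 860, 883 and 772 counts, or 6.61, 6.32 and 5.32 CPM, with the lowest value in replicate 3. Other annotated genes overlap 6.50% of its exonic bases, namely Gm42802 and Gm42803, both with a count of 0 in all 3 libraries, and a microRNA gene. Per kb, Pdgfrb exceeded Pdgfra by 91.0, 113 and 124 times in the 3 mice, so that Pdgfrb made up 99.1% ± 0.150 (SD, n = 3) of the summed receptor level.

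The ligand gene Pdgfb stood above its receptor gene Pdgfrb in 3 of 3 mice, by 1.82, 2.45 and 2.27 times per kb. On the log2 scale the ratio was 1.11 ± 0.22 (SD, n = 3). Without length scaling it was 0.72, and with the longest coding transcript 1.60, both still in favour of Pdgfb. Both genes were lowest in replicate 1 and highest in replicate 2, an order that 15.5% of all genes tested shared.

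None of the 6 genes was called variable between the mice. In edgeR's quasi-likelihood dispersion test, which asks whether a gene's spread exceeds the trend for its abundance, 0.0829% of the 18087 genes tested passed an adjusted p of 0.05. The adjusted p was 0.993 for each of the 6, and none had an unadjusted p under 0.05. Pdgfb came nearest with an unadjusted p of 0.0981 in edgeR, followed by Pdgfc at 0.162, and Pdgfrb was farthest at 0.599. DESeq2 marked none of the 6 as a dispersion outlier. A p that misses the threshold with 3 mice does not show that the mice were alike.

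The marker genes of endothelium were all detected, and Pdgfb lay at the lower end of their levels. The highest of the 10 were the tight junction gene Cldn5 at 2442 ± 392 CPM per kb (SD, n = 3), Ly6a at 1819 ± 316 and the coreceptor gene Eng at 411 ± 58.8, and the lowest was the transcription factor gene Erg at 75.2 ± 5.17. Of these 10 genes, 8 stood above Pdgfb by mean level, and Pdgfb was 18.2, 15.5 and 17.5 times below Cldn5. In replicate 2 the marker Ptprb (151), above Pdgfb by its mean, lay below Pdgfb (174.5). Markers of arterial endothelium, a cell that is a known source of Pdgfb, were lower. By mean level only Gkn3 of 6 exceeded Pdgfb, at 206 ± 41.2 CPM per kb. Sema3g followed at 125.5 ± 19.1, and in replicate 1 Sema3g (117) also exceeded Pdgfb (109). The Notch ligand gene Dll4 had 43.2 ± 9.32, and the gap junction gene Gja5 was last at 6.92 ± 0.477.

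Pdgfb was lowest in replicate 1, as were 9 of the 10 endothelial markers. Pdgfb deviated from its own mean by -0.38, 0.30 and 0.08 on the log2(CPM + 1) scale in replicates 1, 2 and 3. The mean of the 10 endothelial markers deviated by -0.16, 0.04 and 0.11, and set against this mean Pdgfb deviated by -0.22, 0.26 and -0.03. A mean of 10 genes varies less than single genes do, so the spread of Pdgfb is read against the single markers. It lay below each of the 10 markers in replicate 1 and above each of them in replicate 2, where Egfl7, a gene of vessel formation, came nearest at -0.32 and 0.21. The mean of the arterial list deviated by -0.0019 to 0.0029, as its genes went different ways, with Gkn3 highest in replicate 1 and Dll4 in replicate 3. The early response genes Egr1 (32.2, 184 and 57.8 CPM) and Fos (13.7, 86.6 and 32.6 CPM) were named after their values were seen. Both had the same order of the 3 mice as Pdgfb, an order that 15.5% of all genes tested shared. The part of tissue handling in the level of Pdgfb was not tested. Platelets, which store the growth factor family they gave their name to, were represented by 5 marker genes, of which 2, Gp9 and Itga2b, were detected and none was at 0 in all libraries. Gp9 had 5.96 ± 1.44 CPM per kb (SD, n = 3), Pf4 2.88 ± 1.84 and Ppbp 2.18 ± 2.57, and Gp1ba was lowest at 0.373 ± 0.107. The 5 summed to 23.4, 9.85 and 11.1 CPM in replicates 1, 2 and 3, and the part of platelets in the level of Pdgfb was not tested.

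Pericyte markers were all detected too, and Pdgfrb stood among their higher levels. The highest of the 10 were Rgs5, a regulator of G protein signalling, at 449.6 ± 40.5 CPM per kb (SD, n = 3), Vtn, which encodes vitronectin, at 308 ± 50.0 and the Notch receptor gene Notch3 at 60.2 ± 2.77, and the lowest was the peptidase gene Anpep at 6.05 ± 0.780. By mean level Pdgfrb stood above 8 of the 10 and below Rgs5 and Vtn. In replicate 1 Pdgfrb (60.0) also lay below Notch3 (62.0). Its deviations of -0.13, 0.12 and 0.01 followed the list mean of -0.17, 0.14 and 0.03, and the remainder had a standard deviation of 0.04 against 0.12 for Pdgfrb itself. Such closeness was common in the table: of the 9164 genes with at least 10 CPM in every library, 3177 lay within 0.1 of Pdgfrb, taken as the root mean square difference of the deviations. In 8 of the 10 markers replicate 1 was lowest, whereas Rgs5 and Notch3 were highest there. Cells of smooth muscle also carry PDGF receptor beta, and the 7 markers of this list were all detected, led by the contractile genes Acta2 at 1120 ± 138 CPM per kb (SD, n = 3), Myl9 at 913 ± 46.8 and Myh11 at 189 ± 9.59, with Tagln lowest at 5.50 ± 0.716. Their mean deviated by 0.04, -0.14 and 0.10, and against them the standard deviation of Pdgfrb was 0.23. With 3 libraries this is a description of 3 points and not a test of which cells contributed.

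**Figure D3:**
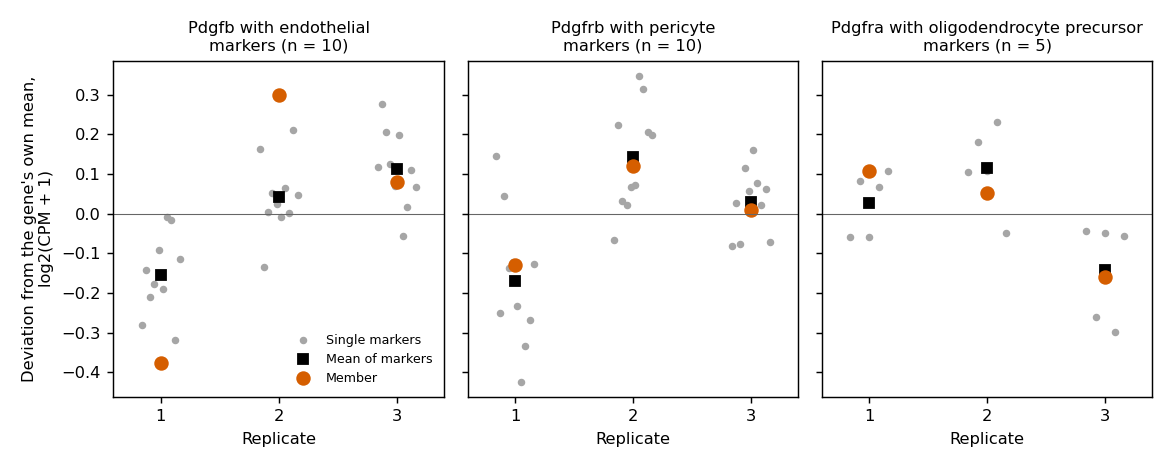
Deviation of Pdgfb, Pdgfrb and Pdgfra (orange circles) from their own mean on the log2(CPM + 1) scale in each replicate, beside the mean (black squares) and the single genes (grey) of the detected endothelial, pericyte and oligodendrocyte precursor markers. Pdgfrb lies within 0.05 of the pericyte mean in all 3 libraries, whereas Pdgfb lies 0.22 below the endothelial mean in replicate 1 and 0.26 above it in replicate 2.

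Pdgfra stood within the range of the oligodendrocyte precursor genes, several of which fell under the limit of detection. Of 10 precursor markers 5 were detected, and 2 stood above Pdgfra per kb. These were Cspg4, the NG2 proteoglycan gene that pericytes express as well, at 18.7 ± 1.19 CPM per kb (SD, n = 3), and the transcription factor gene Olig1 at 2.97 ± 0.529. Olig2, of the same family, came next at 0.314 ± 0.0368, and the sialidase gene Neu4 was lowest at 0.0266 ± 0.0119. None of the 10 was at 0 in all libraries. Fibroblast markers, by contrast, were all 8 detected, and by mean level all were above Pdgfra. The highest were the collagen genes Col1a2 (8.07 ± 0.535) and Col3a1 (6.15 ± 1.46) and Islr (6.01 ± 0.484). The lowest was the proteoglycan gene Lum (0.651 ± 0.249), which lay below Pdgfra in replicates 2 and 3. Lum had 0.939, 0.497 and 0.518 in replicates 1, 2 and 3, against 0.659, 0.630 and 0.531 for Pdgfra. The deviations of Pdgfra were 0.11, 0.05 and -0.16, those of the 5 detected precursor markers 0.03, 0.11 and -0.14, and those of the fibroblast markers 0.18, -0.14 and -0.04. Which of these cells contributed the reads of Pdgfra was not tested.

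Related growth factors and receptors of the same superfamilies gave a scale for these levels. The highest of the 5 VEGF family ligand genes was Vegfc, the lymphatic growth factor, at 30.7 ± 8.16 CPM per kb (SD, n = 3), and Pdgfb exceeded it 3.20, 4.77 and 7.002 times. Vegfb followed at 16.9 ± 2.14, Pgf at 6.38 ± 0.656 and Vegfa, the main ligand of endothelial growth, at 2.02 ± 0.4003, and Vegfd was lowest at 0.582 ± 0.197. On the receptor side Pdgfrb ranked below the colony-stimulating factor receptor gene Csf1r (322 ± 40.6), which microglia express and which is the nearest relative of the PDGF receptors in this list together with Kit and Flt3. It also ranked below the VEGF receptor genes Flt1 (285 ± 30.5) and Kdr (99.6 ± 15.2), each of which exceeded it in 3 of 3 mice. Kdr did so by 1.38, 1.46 and 1.70 times. With this exon length Pdgfra lay just under Kit, which was 1.10, 1.27 and 1.18 times as high, and Flt3 was lowest at 0.0914 ± 0.00972. These places were not recomputed with other exon lengths.

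Beside the members, 66 genes were placed in 7 pathway lists, which also hold related growth factors and receptors and genes of familial brain calcification. Of these genes 65 were detected, against 23.2% of all genes in the table. The 66 had a median of 9.66 CPM per kb, against 5.88 for all detected genes with a length. None of the 66 was called variable between mice by edgeR. An unadjusted p under 0.05 was reached by 3 of them, Plat, Sulf1 and Vegfc, beside 937 of the 18087 genes tested, and DESeq2 marked 1, Plat, as a dispersion outlier, beside 137 in the whole table. The gene that was not detected was Flt3. All 6 genes of ligand activation were detected. Plat, the tissue plasminogen activator that cleaves PDGF-C, was the highest at 99.5 ± 48.3 CPM per kb (SD, n = 3), with 92.0, 55.4 and 151 in replicates 1, 2 and 3, while its substrate gene Pdgfc was 35.5, 31.6 and 71.99 times lower. Plau, the urokinase that cleaves PDGF-D, had 8.22 ± 0.810 CPM per kb, about the level of the convertase gene Pcsk7 (9.83 ± 0.996) and below its substrate gene Pdgfd in 3 of 3 mice. The convertase gene Furin had 20.6 ± 1.69 and Pcsk5 was lowest at 0.721 ± 0.0773.

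The list for retention and co-receptors of PDGF also holds enzymes that make or modify heparan sulphate. Its genes were all detected, 14 of 14, with a median of 13.4 CPM per kb. PDGF-B carries a basic stretch that holds it to heparan sulphate near the endothelium. The highest of the group was Sparc, a matrix protein that binds PDGF-B, at 928.7 ± 28.5 CPM per kb (SD, n = 3), followed by the heparan sulphate proteoglycan genes Agrn (66.9 ± 6.66) and Hspg2, or perlecan (31.6 ± 4.08). The lowest was Ext1, a polymerase of the heparan sulphate chain, at 2.87 ± 0.604.

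The 20 genes that relay the signal from the receptors were detected throughout, between 5.38 and 48.5 CPM per kb. The adaptor genes Grb2 (48.5 ± 3.17) and Crk (47.5 ± 1.44) and the phospholipase gene Plcg1 (33.6 ± 5.11) led, and the exchange factor gene Sos1 was lowest at 5.38 ± 0.357 (SD, n = 3). The 10 negative regulators lay lower, with a median of 9.09 CPM per kb. The phosphatase genes Ptpn12 (25.5 ± 1.502), Ptpn1 (20.6 ± 1.07) and Ptprj (17.5 ± 2.49) were the highest of them, and the ubiquitin ligase gene Cblb was lowest at 1.38 ± 0.126. All 20 and all 10 were below both Pdgfb and Pdgfrb.

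PDGFB and PDGFRB are among the genes mutated in primary familial brain calcification, and the 7 mouse counterparts of that group were all detected. Pdgfb was the highest, the junction gene Jam2 came next at 83.2 ± 5.53 CPM per kb (SD, n = 3), and Pdgfrb followed. Naa60, an acetyltransferase gene, had 15.2 ± 0.785, the phosphate transporter gene Slc20a2 9.30 ± 0.733 and the phosphate exporter gene Xpr1 6.35 ± 0.799. Myorg, a glycosidase gene expressed in astrocytes, was the lowest at 1.63 ± 0.439.

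**Figure D4:**
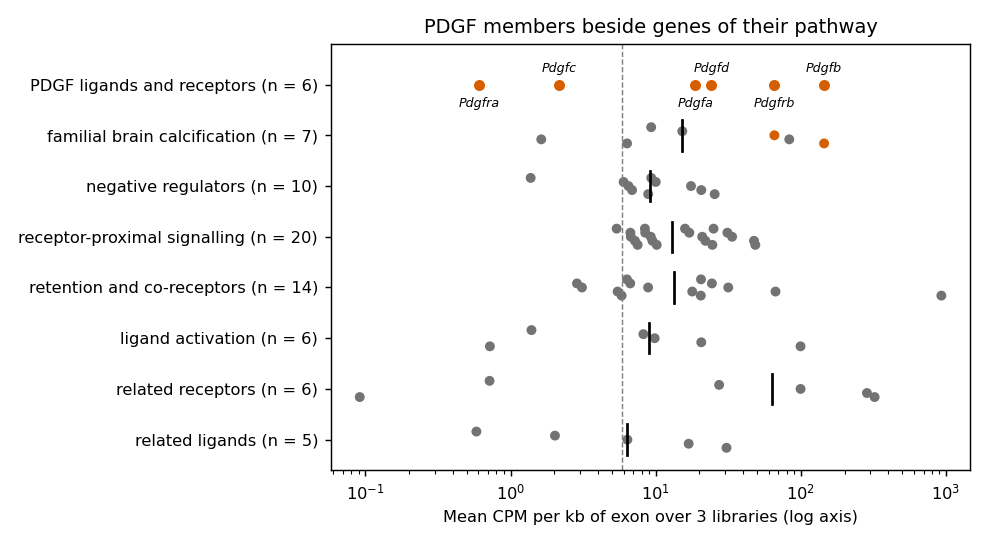
Mean level over the 3 libraries (CPM per kb of exon, log axis) of the 6 PDGF genes, in orange, above the genes of 7 pathway lists, in grey with members in orange; black bars are list medians and the dashed line is the median of all detected genes, 5.88 CPM per kb. Pdgfb and Pdgfrb lie to the right of every signalling gene and negative regulator, while Pdgfc and Pdgfra lie left of the dashed line.

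The genes whose deviations over the 3 libraries were nearest to those of Pdgfb were Bcar1, Noct and Cyp2d22, with root mean square differences of 0.03, 0.03 and 0.04 on the log2(CPM + 1) scale. Within 0.1 of Pdgfb lay 81 of the 9164 genes with at least 10 CPM in every library, among them the endothelial markers Egfl7 (0.06) and Cldn5 (0.10). For Pdgfrb the nearest were Skic2, H2-M3 and Gnptg, and with so many genes as near, given above, the likeness names no special group. Ndufa4l2 (0.04), Anpep (0.06) and Higd1b (0.08) were the nearest pericyte markers.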

How the data were processed

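Polyadenylated RNA of 3 mice was sequenced from stranded libraries, made from 400 ng of total RNA and read as pairs of 150 bp, per the labels' protocols. The authors deposited whole-number counts per gene symbol. Per the submitters' processing notes, featureCounts and Subread 1.4.6-p5 were used with build GRCm39; the sources used here do not give the aligner, annotation release or strand setting. Effective library sizes came from TMM in edgeR 4.0.16 (R 4.3.3). CPM were divided by the union of exons in GENCODE M21 (GRCm38, used for lengths and overlap only; 48986 genes holding 98.2% of counts; Myorg matched by synonym). Spread between mice was tested with an intercept-only edgeR quasi-likelihood fit to 18087 genes kept by filterByExpr, by an upper-tail F test of each quasi-dispersion against the trended prior with Benjamini-Hochberg adjustment at 0.05. The test was also run on simulated counts, but these were drawn at the trended dispersion without scatter of single genes around it. That run therefore does not give the error rate in these data. The library pairs differed by more than sampling noise (mean chi-square of 179 to 252 per gene), so none was a copy. The labels state no separate cultures; replicates were taken as mice from the series' design text, and p-values measure the spread between these samples. A count of 0 allows up to 0.0234, 0.0220 and 0.0199 CPM (3 counts), counting error only.

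The members and gene lists were chosen with earlier results of these data known. Named were all members, the 3 highest and the lowest gene of each pathway list and of each marker list set beside a member, any gene of the lists called variable, and the 3 genes nearest to Pdgfb and Pdgfrb. Alternatives were other scalings, lengths, filters, priors, DESeq2 1.42.0, and leaving out each library.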

Additional observations from a re-analysis of the deposited data

How the results depend on the processing

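Scaling by total count or DESeq2 size factors moved no level by more than 1 SD over mice. Leaving out 1 of 3 libraries cannot move a mean by that much, whatever the values, so only the ranges are given for it. Over the 3 ways of leaving out a library, Pdgfb ranged from 129.6 to 162 CPM per kb, Pdgfrb from 63.0 to 68.6, Pdgfd from 22.6 to 25.5, Pdgfa from 17.5 to 20.1, Pdgfc from 1.93 to 2.35 and Pdgfra from 0.580 to 0.645, the receptor share of Pdgfrb from 99.02% to 99.2%, the ligand share of Pdgfb from 72.6% to 78.9% and the log2 ratio of Pdgfb to Pdgfrb from 1.03 to 1.24. Exon length did. With the median transcript length the CPM per kb of Pdgfa, Pdgfb, Pdgfc and Pdgfra became 45.3, 427, 3.88 and 3.90, and with the longest coding transcript, chosen after seeing the data, 28.3, 204, 3.11 and 0.890. With the whole count divided by only the exon length free of other genes, also chosen later, Pdgfa had 25.3. The share of Pdgfb among ligands became 84.4% and that of Pdgfrb among receptors 94.4% with the median transcript length, and the latter 98.7% with the longest coding transcript and 98.3% unscaled. The log2 ratio of Pdgfb to Pdgfrb became 2.66, 1.60 and 0.72 under these settings. The log2 ratio of Pdgfd to Pdgfa, 0.37, turned to -0.77, -0.22 and -0.065 with median, longest and overlap-free lengths, and that of Pdgfc to Pdgfra, 1.81, to -0.018 with the median length. The cause is the length itself, since the counts stay the same.

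No member was called variable under any of the 7 other settings, DESeq2 included; an unadjusted p under 0.05 appeared for Pdgfb without a filter (0.0446, beside 1674 of 30513 genes under 0.05) and without replicate 3 (0.0192, beside 975 of 18482), and for Pdgfa without replicate 1 (0.0386, beside 1073 of 18436), all by edgeR. The number of genes called in the whole table was 15, against 173 without a filter, 11 with total counts, 0 with a robust prior (785 at an unadjusted p under 0.05), 137 by DESeq2, and 7, 80 and 33 without replicates 1, 2 and 3. Depth limits none of the 6 genes, the lowest count being 772. No paired analysis was possible because there is only 1 group.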
